A study of Mus musculus with 41 samples.

Results

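The genes of glycolysis and of the response to low oxygen were followed in mouse embryonic stem cells (ESCs) that were WT for Esrrb or genetically depleted of it, as 41 named genes: 17 core enzymes, from hexokinase to lactate dehydrogenase, 4 transporters of glucose or lactate, 4 regulators of flux, 15 targets of the hypoxia-inducible factor (HIF) and the HIF subunit gene Hif1a. They were taken from a list by symbol, and kept where at least 3 of the 41 libraries held a level of at least 1 CPM (reads per gene, scaled to a common library total). All 41 were kept, of 16967 genes that passed that filter and 55487 in the deposited table.

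Glycolysis splits glucose into pyruvate, and lactate dehydrogenase then turns pyruvate into lactate. HIF-1 is a pair of subunits. Its alpha subunit, encoded by Hif1a, is hydroxylated and degraded while oxygen is present, so its activity is set mainly at the level of the protein, and it switches on glucose transporters, many glycolytic enzymes and pyruvate dehydrogenase kinase. Naive ESCs are known to use both glycolysis and respiration, and the cells of the epiblast after implantation lean more on glycolysis. Esrrb, a nuclear receptor with no known natural ligand, belongs to the transcription factors that hold ESCs in the naive state.

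The cells were E14 mouse ESCs, an established line, of 3 kinds: WT for Esrrb, and KO2 and KO3, depleted lines that carry a genetic loss of Esrrb. Each kind was sampled in 2iL, the medium in which naive ESCs self-renew, and after 1 day in plain N2B27 followed by 1, 3 or 5 days in AloXR, which is N2B27 with activin A, XAV and BMS439 and leads cells towards a formative state. XAV is a tankyrase inhibitor. Each group held 3 libraries in 2iL and 4 at each day in AloXR, except KO3 at days 3 and 5, which had 2 each: 15 WT, 15 KO2 and 11 KO3 libraries. Whether the libraries within a group came from separate cultures is not stated in the labels, so p-values measure the spread between libraries, which may be technical. In several groups of 4, libraries 1 and 2 lay close together and apart from libraries 3 and 4. The summed HIF targets, for example, were 927.0 and 972.0 CPM against 585.3 and 580.2 in WT on day 3, and 903.5 and 779.5 against 495.4 and 463.5 in KO2 on day 5. The labels do not say what such pairs share, and the fit takes every library as independent, so its p-values may be too small. WT is 1 line, and differences between lines cannot be told apart from the loss of Esrrb. RNA was read as tags near the 3′ end of each transcript (QuantSeq), so that 1 transcript gives 1 tag whatever its length, and no level is compared between genes here. In bulk RNA, fewer cells of a type and less RNA per cell cannot be told apart.

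The libraries held 3424064 to 5736053 reads (median 4581394). At these depths 3 reads, the limit that a count of 0 allows, equal 0.523 to 0.876 CPM. Esrrb itself stood at 309 to 434 CPM in WT in 2iL, at 52.0 to 56.7 in KO2 and at 103 to 166 in KO3. On AloXR day 1 it stood at 12.2 to 17.8 CPM in WT, 1.64 to 5.52 in KO2 and 26.1 to 41.4 in KO3, so at that time the libraries labelled KO3 lay above WT at the 3′ end. Nothing in the labels says which part of the gene was removed. The summed level of 9 naive pluripotency markers in 2iL was 2363 to 2761 CPM in WT, 1886 to 2152 in KO2 and 1761 to 2132 in KO3. That of 4 core pluripotency markers was 759.3 to 854.8 CPM in WT, 390.8 to 498.4 in KO2 and 286.7 to 416.8 in KO3. The depleted lines thus already differed from WT in these markers in 2iL. WT library 3 in 2iL stands apart for the genes followed. Of the 41 members, 15 (36.6%) were at least 1.5-fold above both other WT libraries there, against 10.9% of all genes tested. Calls printed below that depend on that library are named. Libraries are numbered within a group in accession order, which only names them.

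The proximal promoters of 5 members are shown because the results below turn on them: Bnip3, Slc2a1 and Ldha as a HIF target, a transporter and an enzyme, and Pfkp and Ldhb as enzymes lower in the depleted lines at all 4 times. They were chosen after their values were seen. Each is the stretch of 250 bases upstream of the RefSeq start on GRCm38.p6, written 5′ to 3′ on the gene's strand, and capitals mark ACGTG or GCGTG, the core of the hypoxia response element, read on both strands, so that a run of capitals can hold overlapping matches.
Bnip3: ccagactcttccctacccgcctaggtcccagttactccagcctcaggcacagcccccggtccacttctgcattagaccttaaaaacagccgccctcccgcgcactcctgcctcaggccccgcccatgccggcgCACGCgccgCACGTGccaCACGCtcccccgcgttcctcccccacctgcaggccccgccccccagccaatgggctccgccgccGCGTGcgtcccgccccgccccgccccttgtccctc
Slc2a1: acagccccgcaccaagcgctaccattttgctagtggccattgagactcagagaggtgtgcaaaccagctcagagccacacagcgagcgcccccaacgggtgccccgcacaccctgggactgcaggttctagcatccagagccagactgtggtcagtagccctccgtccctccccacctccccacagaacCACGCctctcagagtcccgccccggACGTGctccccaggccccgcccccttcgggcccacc
Ldha: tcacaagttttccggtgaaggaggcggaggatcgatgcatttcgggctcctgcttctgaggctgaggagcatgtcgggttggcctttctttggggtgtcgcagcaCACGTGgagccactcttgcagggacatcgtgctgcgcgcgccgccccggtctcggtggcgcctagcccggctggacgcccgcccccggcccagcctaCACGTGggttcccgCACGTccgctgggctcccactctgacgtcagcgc
Pfkp: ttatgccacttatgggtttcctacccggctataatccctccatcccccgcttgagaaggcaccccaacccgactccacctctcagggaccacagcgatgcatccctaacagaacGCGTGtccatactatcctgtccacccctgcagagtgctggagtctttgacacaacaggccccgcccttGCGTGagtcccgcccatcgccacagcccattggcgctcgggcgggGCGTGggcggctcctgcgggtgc
Ldhb: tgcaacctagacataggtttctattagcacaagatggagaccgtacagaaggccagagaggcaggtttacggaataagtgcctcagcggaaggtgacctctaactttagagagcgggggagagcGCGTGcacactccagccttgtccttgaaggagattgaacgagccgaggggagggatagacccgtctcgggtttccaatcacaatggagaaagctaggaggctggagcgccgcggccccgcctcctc
These lie at chr7:138909507-138909756 (minus strand, 5 matches), chr4:119108495-119108744 (plus strand, 2 matches), chr7:46845554-46845803 (plus strand, 5 matches), chr13:6648772-6649021 (minus strand, 3 matches) and chr6:142507958-142508207 (minus strand, 1 match). Matches that share a palindrome, as CACGTG does, are counted once on each strand. RefSeq windows from 250 bases before to 50 after the start were found for 38 of the 41 members (Slc2a3, Bnip3l and Ndrg1 had none). The core stood in 35 of these 38 (92.1%), against 46.7% of all 27025 genes with a window and 65.8% of the 11585 of them that passed the filter here. Base composition moves with this count: the median GC content was 63.2% in the members' windows, 60.3% in those of measured genes and 52.7% in all, and its part was not tested. The letters of an Esrrb-type element, TCAAGGTCA, stood in 0 of 38 member windows (0.5% of all genes), and the shorter AAGGTCA, which the longer one contains, in 2 of 38 (5.3%, Tpi1 and Eno1) against 5.4% of all genes. These are matches of letters in 1 window per start, and a gene counted where any of its windows held them. Genes with several starts thus had more windows to match: the 38 members had 56, and the 27025 genes 32851. Of other members followed below, the GENCODE annotation places Slc2a3 at chr6:122727809-122801640, Hk1 at chr10:62268855-62379908, Pdk1 at chr2:71873224-71903858 and Ddit4 at chr10:59949669-59951834 on GRCm38.

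In WT cells 3 of the 4 transporters, most HIF targets and most core enzymes were higher on AloXR day 5 than in 2iL, while Hk1, Hk2, Pfkp and Ldhb fell. With limma on log2(CPM + 1), a gene was called where the adjusted p was under 0.05 and the difference at least 1.5-fold (0.58 on the log2 scale). On that scale the change of low genes is understated. Against WT in 2iL, 10 members were higher and 12 lower on day 1 (17.8% and 18.7% of all genes tested), 14 higher and 10 lower on day 3 (21% and 20.6%), and 25 higher and 5 lower on day 5 (22.7% and 16.6%). The median difference of the 41 members was 0.30, 0.10 and 0.81 on the log2 scale at the 3 days, beside 0.03, 0.03 and 0.09 for all genes. On day 5 the genes called higher were 10 of 17 core enzymes, 3 of 4 transporters, 1 of 4 regulators of flux, 10 of 15 HIF targets and Hif1a.

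Among the transporters, Slc2a1 (GLUT1, the widespread glucose transporter) stood at 71.9, 85.4 and 244 CPM in WT in 2iL and 1047, 991, 864 and 991 on day 5. All 4 day 5 libraries lay above all 2iL libraries, and the difference was 3.07 ± 0.27 (log2 and SE, adjusted p = 1.84e-11). Slc2a3 (GLUT3, a high-affinity glucose transporter) went the other way first: its WT values were 873, 808 and 695 CPM in 2iL, 23.4, 23.8, 18.6 and 30.5 on day 1, 88.1, 109, 57.9 and 48.7 on day 3 and 791, 729, 555 and 658 on day 5. It fell by 5.00 on the log2 scale on day 1 (SE 0.39, adjusted p = 5.54e-12), and by day 5 its libraries overlapped those in 2iL (-0.22 ± 0.39 SE on the log2 scale, adjusted p = 0.684). Slc16a3 (MCT4, which exports lactate) was at 13.7, 14.1 and 79.6 CPM in WT in 2iL and 259, 249.7, 290.3 and 298 on day 1. It was higher on day 1 by 3.39 ± 0.34 (log2 and SE, adjusted p = 1.23e-09) and on day 5 by 3.22 ± 0.34 (log2 and SE, adjusted p = 2.26e-09).

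Several steps of glycolysis are run by more than 1 form of an enzyme. Hk1 and Hk2 both phosphorylate glucose, and both fell by day 1. Hk1 went from 151, 131 and 80.5 CPM in 2iL to 17.3, 16.3, 18.8 and 17.1, a difference of -2.68 ± 0.18 (log2 and SE, adjusted p = 5.43e-17). Hk2 went from 750.2, 609 and 584 CPM to 178, 178, 227 and 236, a difference of -1.66 ± 0.12 (log2 and SE, adjusted p = 4.04e-16). Of the phosphofructokinases, which commit sugar to glycolysis, Pfkp fell by day 5 (-3.47 ± 0.28 SE on the log2 scale, adjusted p = 1.49e-13) and the liver form Pfkl rose (1.60 ± 0.18 SE on the log2 scale, adjusted p = 2.26e-10). Of the lactate dehydrogenase subunits, the heart-type Ldhb fell by day 5 (-1.37 ± 0.24 SE on the log2 scale, adjusted p = 1.17e-05) and the muscle-type Ldha rose (1.47 ± 0.26 SE on the log2 scale, adjusted p = 1.91e-05). Ldha was already higher on day 1, at 1184, 1097, 1225 and 1269 CPM against 245, 239.7 and 719.6 in 2iL (1.77 ± 0.26 SE on the log2 scale, adjusted p = 1.36e-06). The highest of the 2iL values is WT library 3, and the 2iL and day 1 groups do not overlap.

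HIF targets rose with them in WT. Bnip3, a mitophagy receptor, differed by 2.29 ± 0.35 (log2 and SE, adjusted p = 1.44e-06) between day 5 and 2iL. Ddit4, an inhibitor of mTORC1, differed by 2.27 ± 0.31 (log2 and SE, adjusted p = 2.47e-07). Egln1, the main oxygen-sensing HIF prolyl hydroxylase, differed by 1.69 ± 0.24 (log2 and SE, adjusted p = 1.55e-07). Vegfa, the angiogenic growth factor, was lower on day 1 (-1.63 ± 0.23 SE on the log2 scale, adjusted p = 1.27e-07) and higher on day 5 (0.84 ± 0.23 SE on the log2 scale, adjusted p = 0.00235). Kdm3a, a histone demethylase, was the HIF target called lower on day 5 (-0.91 ± 0.19 SE on the log2 scale, adjusted p = 8.91e-05). Hif1a mRNA was higher by 0.67 ± 0.13 (log2 and SE, adjusted p = 1.29e-05), which edgeR did not call. With edgeR 21 members were higher on day 5, in place of 25.

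**Figure D1:**
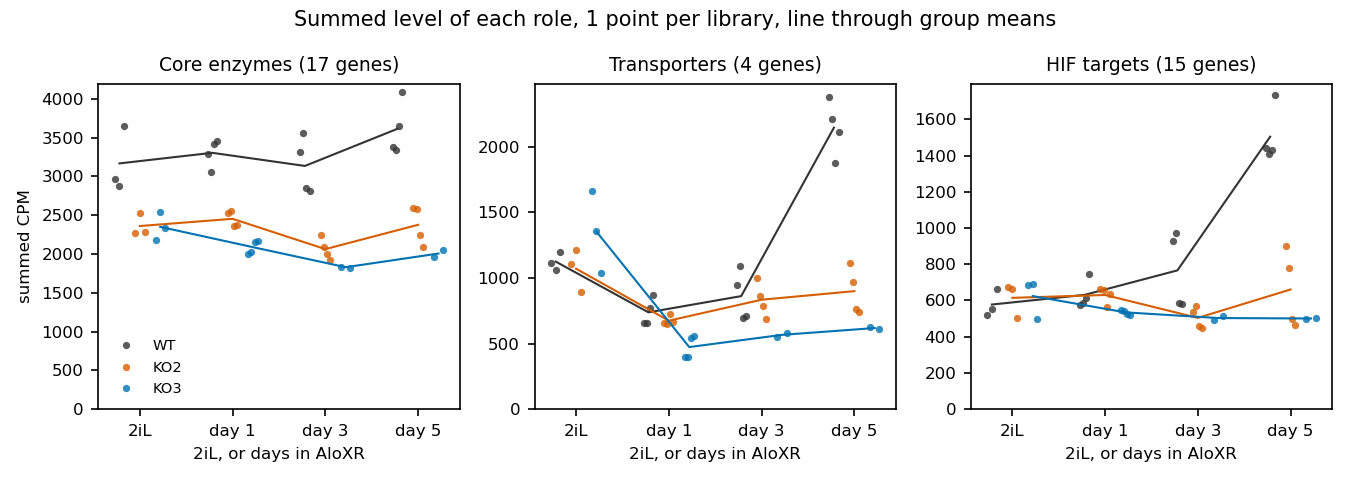
Summed CPM of the 17 core enzymes, 4 transporters and 15 HIF targets in each of the 41 libraries (points; vertical axis in CPM, lines through the group means), by line and time. On day 5 the mean transporter sum is 2147 CPM for WT against 899.5 for KO2 and 618 for KO3.

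Against this course, both depleted lines held lower levels of glycolysis and HIF target genes, in few genes in 2iL and in most by day 5. Averaged over both lines, and called only where both lines differed from WT in the same direction, 8 members were lower and 2 higher in 2iL, beside 7.6% and 8.11% of all genes tested (15 in all, in place of 10, without WT library 3). How the called members divide into lower and higher without that library is not given here. It was at least 1.5-fold above both other WT libraries for 15 members and as far below both for 4. The balance of lower and higher members in 2iL may thus rest in part on that library. On day 1, 11 members were lower and 2 higher (5.5% and 6.31% of all genes). On day 3, 15 were lower and 3 higher (6.49% and 10.8%). On day 5, 25 of the 41 were lower (11.7% of all genes) and 0 higher (8.89%); none was higher with edgeR either, and 0 were higher at an unadjusted p under 0.05 with limma. The median difference of the members was -0.16, -0.31, -0.35 and -0.85 on the log2 scale at the 4 times, beside 0.04, 0.02, 0.03 and 0.00 for all genes. Members are mostly well expressed. Among the 8495 genes with a mean of at least 10 CPM, which include 34 members, 22 members were lower on day 5, beside 11.2% of those genes. The libraries of both depleted lines lay wholly beyond those of WT for 7 members in 2iL, 14 on day 1, 14 on day 3 and 22 on day 5, beside 11.8%, 11%, 16.6% and 18.3% of all genes.

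Across the 4 times, 3 members were lower at all of them (Pfkp, Ldhb and Pdk1) and 5 at 3 of them (Hk1, Ldha, Bnip3, Bnip3l and Ero1l). Another 11 were lower at 2 times and 10 at 1 time. The remaining 12 were never called lower: P4ha2, Ankrd37 and Pfkfb3 were called higher at some time, and 9 were called at none (Hk2, Gpi1, Pfkm, Gapdh, Pkm, Slc16a1, Pdk3, Pfkfb4 and Hif1a).

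**Figure D2:**
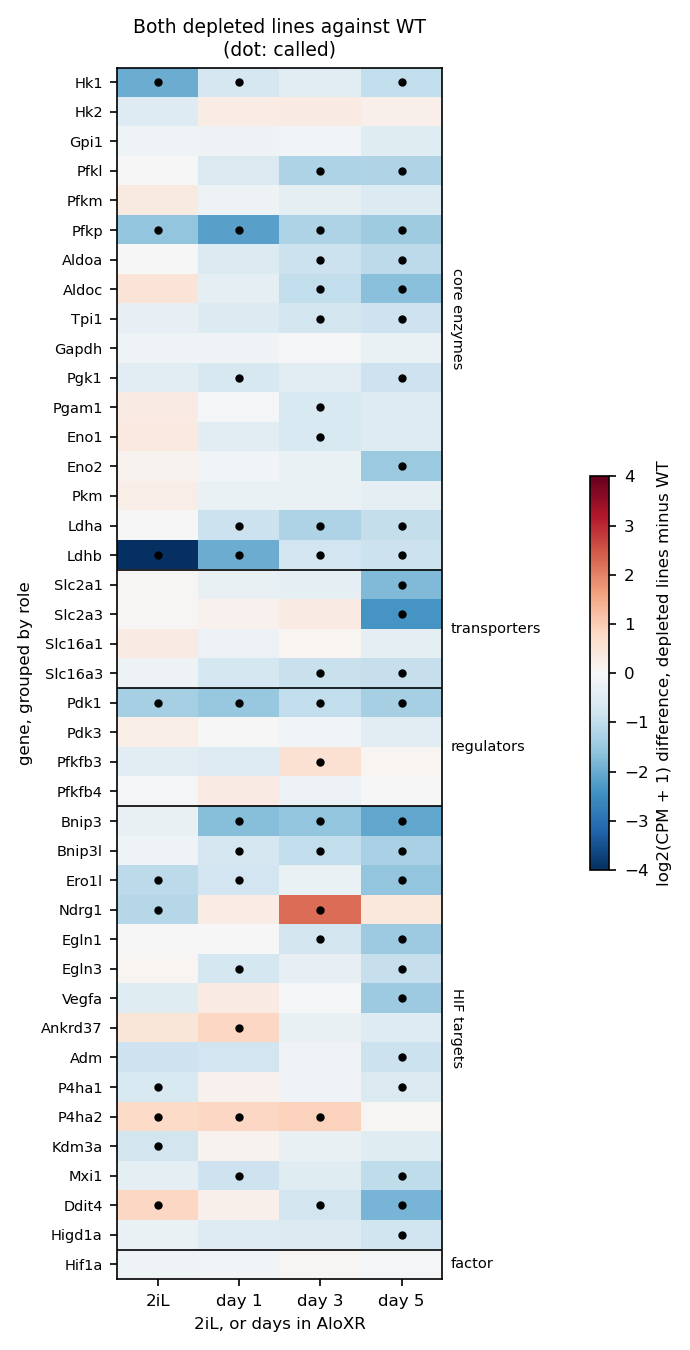
Difference of both depleted lines from WT (colour, log2 scale) for the 41 members (rows, grouped by role) in 2iL and on AloXR days 1, 3 and 5 (columns); a dot marks a called gene. Dots fill 10 rows in 2iL and 25 on day 5.

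The core enzymes divide into 3 that were already lower in 2iL and a larger set that parted from WT later. In 2iL, Ldhb stood at 403, 393 and 163 CPM in WT, 16.4, 36.3 and 41.6 in KO2 and 13.1, 10.2 and 9.24 in KO3. All 6 depleted libraries lay below all 3 WT libraries, and the difference, -3.98 ± 0.22 (log2 and SE, adjusted p = 6.08e-16), is 15.7-fold. Hk1 stood at 151, 131 and 80.5 CPM in WT, 31.8, 29.6 and 22.6 in KO2 and 28.7, 38.7 and 25.6 in KO3, again with all 6 below WT (-1.97 ± 0.17 SE on the log2 scale, adjusted p = 7.36e-13). Pfkp, the platelet-type phosphofructokinase, stood at 185, 220.2 and 221 CPM in WT, 80.02, 71.4 and 50.6 in KO2 and 82.3, 79.9 and 54.4 in KO3. Its groups did not overlap either, and the difference was -1.59 ± 0.26 (log2 and SE, adjusted p = 1.21e-05).

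All 3 were followed after 2iL. On day 1 Pfkp was at 46.2, 47.7, 50.97 and 50.3 CPM in WT, 11.6, 14.3, 4.89 and 7.36 in KO2 and 11.97, 11.6, 11.3 and 11.5 in KO3, without overlap, and the difference was -2.16 ± 0.23 (log2 and SE, adjusted p = 1.64e-09). Its change from 2iL to day 5 was not called different between genotypes (0.18 ± 0.36 SE on the log2 scale, adjusted p = 0.779). Ldhb on day 1 was at 131, 133, 96.8 and 108 CPM in WT, 38.7, 44.6, 25.4 and 31.4 in KO2 and 25.03, 28.2, 22.7 and 19.9 in KO3, a difference of -1.99 ± 0.19 (log2 and SE, adjusted p = 8.14e-10). On day 5 it was at 123, 123, 103 and 107 CPM in WT, 82.2, 70.03, 62.8 and 57.9 in KO2 and 58.2 and 57.97 in KO3, a difference of -0.85 ± 0.21 (log2 and SE, adjusted p = 0.00193). The depleted libraries lay below every WT library at both times. For Ldhb the change from 2iL to day 5 differed between genotypes by 3.13 ± 0.31 (log2 and SE, adjusted p = 1.79e-09). WT fell, while the depleted libraries stood at 9.24 to 41.6 CPM in 2iL and 57.9 to 82.2 on day 5. Hk1 instead fell in all lines, and it fell less in the depleted lines, by 0.97 ± 0.23 (log2 and SE, adjusted p = 0.0016). Its day 5 levels were 19.2, 20.6, 22.3 and 24.2 CPM in WT, 13.4, 13.2, 12.5 and 12.4 in KO2 and 7 and 9.28 in KO3, still below every WT library (-1.0 ± 0.16 SE on the log2 scale, adjusted p = 2.21e-06).

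**Figure D3:**
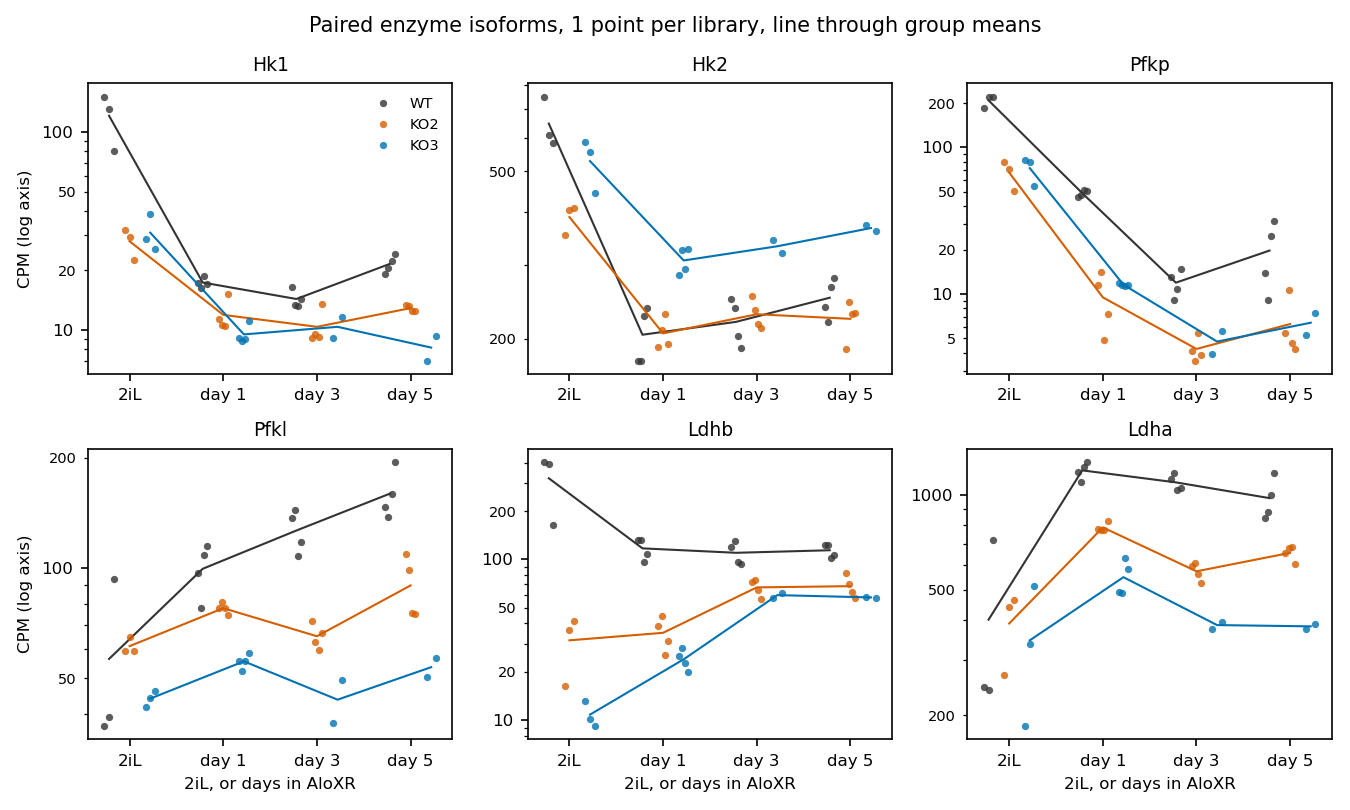
CPM per library (points, log axis) of 3 pairs of enzyme forms, Hk1 and Hk2, Pfkp and Pfkl, Ldhb and Ldha, by line and time, with lines through the group means. In 2iL all depleted libraries lie below WT for Hk1, Pfkp and Ldhb, and those of Ldha overlap WT.

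Ldha, the subunit that favours lactate production, showed the later pattern. In 2iL its levels were 245, 239.7 and 719.6 CPM in WT, 268, 441 and 462 in KO2 and 185, 336 and 515 in KO3. They overlapped, and the difference was -0.01 ± 0.24 (log2 and SE, adjusted p = 0.993). On day 1 it was at 1184, 1097, 1225 and 1269 CPM in WT, 779.9, 769.8, 775 and 825 in KO2 and 490.1, 489, 631 and 579.95 in KO3, and all 8 depleted libraries lay below all 4 WT libraries (-0.86 ± 0.21 SE on the log2 scale, adjusted p = 0.00289). On day 3 it was at 1119, 1174, 1035 and 1048 CPM in WT, 594, 607, 561 and 523 in KO2 and 376 and 396 in KO3, without overlap (-1.22 ± 0.23 SE on the log2 scale, adjusted p = 0.000125). On day 5 it was at 841, 884, 1000.5 and 1175 CPM in WT, 654, 677, 681 and 604 in KO2 and 376 and 389 in KO3, again without overlap (-0.95 ± 0.23 SE on the log2 scale, adjusted p = 0.00157). KO3 lay below KO2 in every library on day 5. Without library 3 of each line in 2iL the change of Ldha from 2iL to day 1 also differed between genotypes (-1.14 on the log2 scale), which it was not called to do with these libraries (-0.86 ± 0.32 SE on the log2 scale, adjusted p = 0.0848).

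On days 3 and 5 Pfkl, Aldoa, Aldoc and Tpi1 were lower. Pfkl stood on day 3 at 137, 144, 108 and 118 CPM in WT, 71.7, 62.8, 59.6 and 66.5 in KO2 and 37.8 and 49.6 in KO3. Its difference there was -1.23 ± 0.15 (log2 and SE, adjusted p = 3.24e-08). By day 5 it was at 147, 138, 159.6 and 195 CPM in WT, 109, 99.1, 75.5 and 75.1 in KO2 and 50.5 and 56.8 in KO3, a difference of -1.19 ± 0.15 (log2 and SE, adjusted p = 7.91e-08). Aldoa, which cleaves fructose bisphosphate, was at 881, 892, 956 and 1093 CPM in WT, 685, 551, 449 and 424 in KO2 and 392 and 439 in KO3 on day 5 (-1.04 ± 0.13 SE on the log2 scale, adjusted p = 2.89e-08). Every depleted library lay below every WT library for both genes. Aldoc, the brain-type aldolase, was at 53.01, 44.4, 53.9 and 63.1 CPM in WT, 20.3, 21.5, 25.4 and 15.9 in KO2 and 13.04 and 12 in KO3 on day 5, again without overlap (-1.67 ± 0.18 SE on the log2 scale, adjusted p = 1.18e-09). Tpi1, which interconverts the triose phosphates, was at 309, 328, 342 and 350.03 CPM in WT, 235, 268, 184 and 173 in KO2 and 163 and 160.1 in KO3, also without overlap (-0.84 ± 0.16 SE on the log2 scale, adjusted p = 7.15e-05).

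Further down, fewer steps were called. Pgk1, which makes the first ATP of the pathway, was lower on day 5 (-0.83 ± 0.23 SE on the log2 scale, adjusted p = 0.00506), with 5 of 6 depleted libraries below WT. Eno2, the neuronal enolase, was low throughout and stood at 6.33, 7.33, 6.37 and 9.17 CPM in WT, 2.28, 1.66, 1.11 and 1.24 in KO2 and 1.93 and 2.94 in KO3 on day 5 (-1.49 ± 0.28 SE on the log2 scale, adjusted p = 7.07e-05). Eno1 and Pgam1 were called lower on day 3 alone, with differences of -0.62 ± 0.23 (log2 and SE, adjusted p = 0.0472) and -0.61 ± 0.22 (log2 and SE, adjusted p = 0.0349), and only 2 of 6 depleted libraries lay beyond WT for Pgam1. Leaving out single day 3 libraries ends the call of Eno1 in 9 of 10 fits (all but that without KO2 library 1) and that of Pgam1 in 6 of 10 (WT library 1, 2 or 3, KO2 library 2 or either KO3 library). Gapdh stood at 199, 176, 193 and 184 CPM in WT, 123, 182, 157 and 135 in KO2 and 163 and 168 in KO3 on day 5, where the groups overlap and the difference was -0.27 ± 0.16 (log2 and SE, adjusted p = 0.213). Pkm, pyruvate kinase, differed by -0.37 ± 0.14 (log2 and SE, adjusted p = 0.0382), under the 1.5-fold limit. Gpi1, which makes fructose phosphate, and Pfkm, the muscle phosphofructokinase, differed on day 5 by -0.50 ± 0.11 and -0.56 ± 0.20 on the log2 scale (adjusted p = 0.000285 and 0.0277), both under that limit. The summed level of the 17 core enzymes on day 5 was 3614 ± 341 CPM (SD, n = 4) for WT, 2376 ± 252 (n = 4) for KO2 and 2005 ± 60.7 (n = 2) for KO3.

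Hk2 moved apart from Hk1. In 2iL it stood at 750.2, 609 and 584 CPM in WT, 353, 404 and 409.7 in KO2 and 585, 556 and 443 in KO3, with a difference of -0.51 ± 0.11 (log2 and SE, adjusted p = 0.000383) that is under the 1.5-fold limit. On day 5 it stood at 238, 219.7, 266 and 279 CPM in WT, 189, 244, 229 and 230.3 in KO2 and 372 and 361 in KO3. Both KO3 libraries exceeded every WT library and KO2 overlapped WT, and the mean of both lines differed from WT by 0.19 ± 0.10 (log2 and SE, adjusted p = 0.144). KO3 was above KO2 by 0.72 ± 0.13 (log2 and SE, adjusted p = 0.00014). The genes around Hk2 on chromosome 6 had a local median difference of KO3 from KO2 of 0.21 to 0.38 on the log2 scale over the 4 times, and centred on its neighbours the day 5 difference of Hk2 was 0.48, which is not called. The part of that local shift was not tested.

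For the transporters the calls came late. In 2iL and on day 1 limma called 0 of 4 lower (0 at an unadjusted p under 0.05 in 2iL, 2 on day 1), on day 3 it called 1, and on day 5 it called 3. Of all genes tested, 6.49% were lower on day 3 and 11.7% on day 5. Slc2a1 stood in 2iL at 71.9, 85.4 and 244 CPM in WT, 116, 152 and 139 in KO2 and 78.7, 120.4 and 127 in KO3, with WT library 3 the highest and the groups overlapping (0.06 ± 0.25 SE on the log2 scale, adjusted p = 0.896). Its day 5 levels were 1047, 991, 864 and 991 CPM in WT, 453, 352, 285 and 266 in KO2 and 244 and 238 in KO3. All 6 depleted libraries lay below all 4 WT libraries, a difference of -1.78 ± 0.23 (log2 and SE, adjusted p = 5.33e-07), or 3.42-fold.

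Slc2a3 showed the late gap too. On day 1 it was low in every line (23.4, 23.8, 18.6 and 30.5 CPM in WT, 24.4, 20.9, 26.3 and 24.8 in KO2 and 14.6, 19.5, 49.3 and 53.5 in KO3), with the KO3 libraries in separate pairs, and the difference was 0.16 ± 0.31 (log2 and SE, adjusted p = 0.78). Its day 5 levels were 791, 729, 555 and 658 CPM in WT, 271, 179.6, 79.04 and 88.05 in KO2 and 121 and 129 in KO3. The 4 KO2 libraries were spread, with 2 higher and 2 lower, yet all lay below WT, and the difference of -2.37 ± 0.34 (log2 and SE, adjusted p = 2.99e-06) is 5.17-fold. The change of Slc2a3 from 2iL to day 5 differed between genotypes by -2.43 ± 0.49 (log2 and SE, adjusted p = 0.000617), and that of Slc2a1 by -1.84 ± 0.34 (log2 and SE, adjusted p = 0.000161).

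For Slc16a3 the lines differed in size. It stood on day 5 at 254, 246, 227 and 239 CPM in WT, 184, 210.3, 183 and 187 in KO2 and 81.9 and 85.8 in KO3. The depleted libraries all lay below WT, those of KO3 farthest, and the mean difference was -0.93 ± 0.30 (log2 and SE, adjusted p = 0.0161). Taken alone, KO2 differed from WT by -0.34 ± 0.32 (log2 and SE, adjusted p = 0.492) and KO3 by -1.51 ± 0.39 (log2 and SE, adjusted p = 0.00336), and KO3 differed from KO2 by -1.18 ± 0.39 (log2 and SE, adjusted p = 0.0323), a call lost without KO2 library 2 or either KO3 library. The day 3 call of Slc16a3 (-0.88 ± 0.30 SE on the log2 scale, adjusted p = 0.0266) is lost without WT library 1 or 2 or either KO3 library. Slc16a1 (MCT1, the other lactate carrier) was called at no time.

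**Figure D4:**
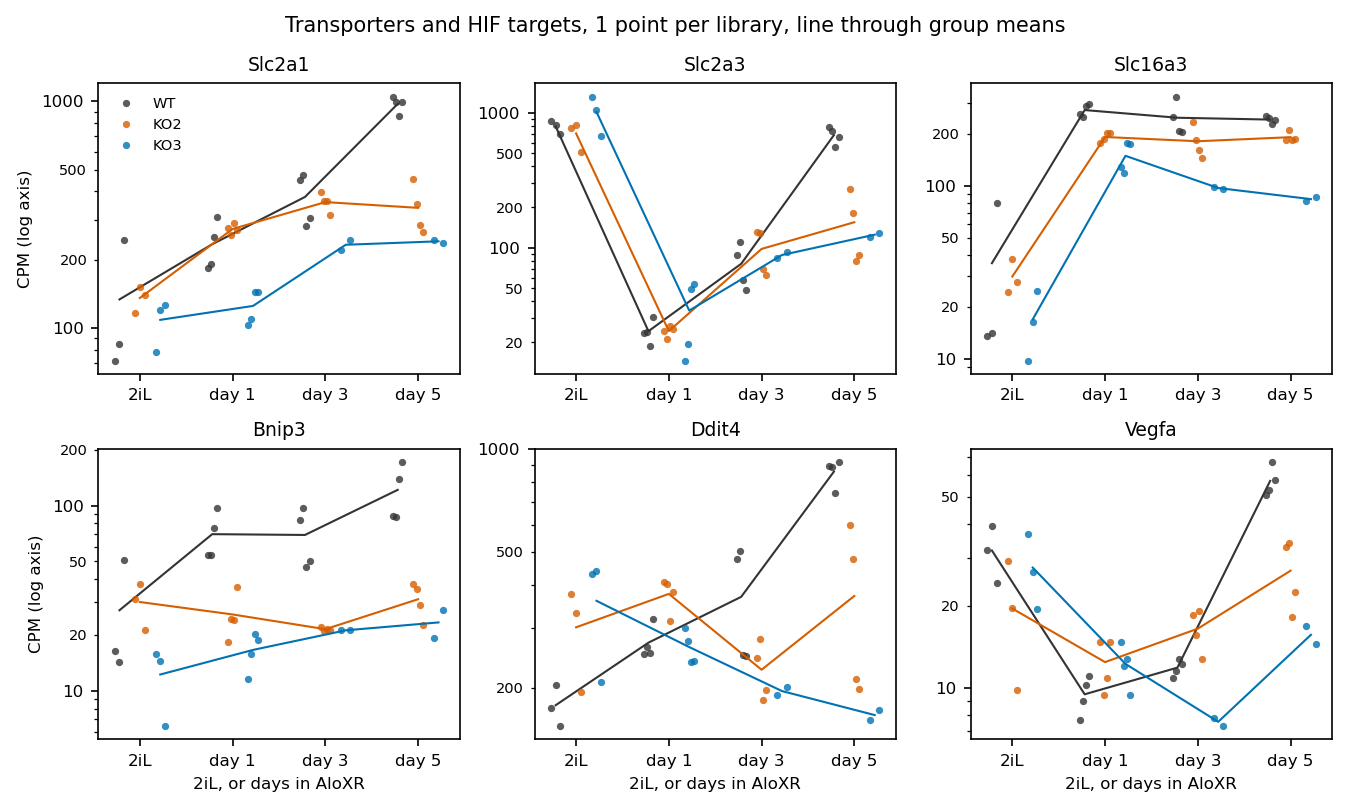
CPM per library (points, log axis) of the transporters Slc2a1, Slc2a3 and Slc16a3 and the HIF targets Bnip3, Ddit4 and Vegfa, by line and time, with lines through the group means. On day 5 every depleted library lies below every WT library in all 6 panels.

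Of the regulators of flux, Pdk1 was lower at all 4 times. Its product inactivates pyruvate dehydrogenase. On day 1 it stood at 129.8, 127, 118 and 128 CPM in WT, 39.4, 43.2, 26.3 and 30.8 in KO2 and 47.9, 57.1, 58.7 and 57.8 in KO3, with every depleted library under the level of every WT library (-1.51 ± 0.18 SE on the log2 scale, adjusted p = 2.48e-08). In 2iL its values were 27.5, 40.1 and 71.4 CPM in WT, 17.8, 22.5 and 20.1 in KO2 and 9.12, 14.6 and 18.8 in KO3 (-1.32 ± 0.21 SE on the log2 scale, adjusted p = 4.92e-06). On day 5 they were 45.4, 42.4, 62.5 and 66.6 CPM in WT, 26.4, 19.2, 15.6 and 15.9 in KO2 and 24.6 and 20.4 in KO3 (-1.33 ± 0.20 SE on the log2 scale, adjusted p = 1.26e-06). There was no overlap at these times. Pdk3, its paralog, differed by -0.43 ± 0.13 (log2 and SE, adjusted p = 0.00671) on day 5, under the 1.5-fold limit. Pfkfb3 and Pfkfb4, which set the level of the phosphofructokinase activator fructose 2,6-bisphosphate, differed on day 5 by 0.08 ± 0.20 and 0.03 ± 0.24 on the log2 scale (adjusted p = 0.793 and 0.952). Pfkfb3 was higher on day 3 (0.62 ± 0.20 SE on the log2 scale, adjusted p = 0.0168), with only 2 of 6 depleted libraries above WT, and is not called there without WT library 3 or 4, KO2 library 2 or KO3 library 1.

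Of the 15 HIF targets, 4 were lower and 2 higher in 2iL, 5 lower and 2 higher on day 1, 4 lower and 2 higher on day 3, and 11 lower on day 5, with a median difference of -0.93 on the log2 scale. Of all genes tested, 7.6% were lower and 8.11% higher in 2iL, and 5.5% and 6.31% on day 1. On day 3 the shares were 6.49% and 10.8%, and on day 5 they were 11.7% and 8.89%. Bnip3 was lower on days 1, 3 and 5. It stood on day 1 at 53.7, 53.9, 75.5 and 96.98 CPM in WT, 18.3, 24.4, 24.2 and 36.3 in KO2 and 11.5, 15.8, 20.4 and 18.7 in KO3, a difference of -1.70 ± 0.28 (log2 and SE, adjusted p = 2.74e-05). On day 3 it stood at 83.4, 97.1, 46.5 and 50.3 CPM in WT, 22.2, 20.9, 21.5 and 21.3 in KO2 and 21.2 and 21.2 in KO3, a difference of -1.59 ± 0.30 (log2 and SE, adjusted p = 0.000154). By day 5 it was at 87.2, 87.2, 139.8 and 172 CPM in WT, 37.6, 35.2, 29.2 and 22.7 in KO2 and 19.3 and 27.4 in KO3, and the difference of -2.09 ± 0.30 (log2 and SE, adjusted p = 2.68e-06) is 4.26-fold. The depleted libraries lay below all WT libraries on each day, although WT itself fell into pairs of libraries on day 3. In 2iL its groups overlapped (-0.30 ± 0.32 SE on the log2 scale, adjusted p = 0.569). The targets lower in 2iL were Ero1l (-1.05 ± 0.19 SE on the log2 scale, adjusted p = 2.43e-05), Ndrg1, Kdm3a (-0.72 ± 0.18 SE on the log2 scale, adjusted p = 0.00196) and P4ha1 (-0.60 ± 0.22 SE on the log2 scale, adjusted p = 0.0476). Kdm3a is not called without WT library 3, nor P4ha1 without any 1 of 6 of the 9 libraries (WT 1 and 2, KO2 1 and 3, KO3 1 and 2).

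Ddit4 was higher in the depleted lines in 2iL and lower on days 3 and 5. In 2iL it stood at 175, 204 and 155 CPM in WT, 376, 332 and 195 in KO2 and 429.5, 441 and 209 in KO3, higher in 5 of 6 depleted libraries than in any WT library (0.82 ± 0.28 SE on the log2 scale, adjusted p = 0.0349). That call is lost in 7 of the 9 fits that leave out a single 2iL library, all but those without KO2 library 3 or KO3 library 3. By day 5 it stood at 892, 884, 742 and 915 CPM in WT, 597, 478, 213 and 198 in KO2 and 161 and 172 in KO3. All 6 depleted libraries lay below WT (-1.86 ± 0.27 SE on the log2 scale, adjusted p = 2.95e-06), KO2 again as 2 higher and 2 lower libraries. The change from 2iL to day 5 differed between genotypes by -2.68 ± 0.39 (log2 and SE, adjusted p = 7.1e-06). On day 3 it stood at 475, 504, 250.2 and 248 CPM in WT, 245, 277, 184 and 197 in KO2 and 190.2 and 201 in KO3, with WT too in a high and a low pair. The difference there was -0.74 ± 0.27 (log2 and SE, adjusted p = 0.0388), and the call is lost when WT library 1 or 2, KO2 library 3 or 4 or either KO3 library is left out.

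Vegfa was lower on day 5 and Egln1 on days 3 and 5. Vegfa stood at 51.04, 52.9, 67.1 and 57.8 CPM in WT, 32.8, 34.1, 18.3 and 22.5 in KO2 and 16.9 and 14.5 in KO3 on day 5 (-1.45 ± 0.20 SE on the log2 scale, adjusted p = 2.96e-07). Egln1 stood at 62.4, 57.5, 75.9 and 96.7 CPM in WT, 30.7, 27.4, 26.9 and 31.9 in KO2 and 26.1 and 18.8 in KO3 (-1.46 ± 0.21 SE on the log2 scale, adjusted p = 9.42e-07). No depleted library of either gene reached the WT range. Egln3, a second HIF hydroxylase that is itself strongly induced by HIF, differed by -0.93 ± 0.24 (log2 and SE, adjusted p = 0.00256), with 5 of 6 depleted libraries below WT, and is not called without WT library 4. It was also lower on day 1 (-0.69 ± 0.23 SE on the log2 scale, adjusted p = 0.0237), with 5 of 8 depleted libraries below WT, a call lost without WT library 2 or 4. Mxi1, a MAX partner that opposes MYC, differed by -1.01 ± 0.15 (log2 and SE, adjusted p = 1.25e-06), and Higd1a, a mitochondrial protein of respiratory complexes, by -0.81 ± 0.13 (log2 and SE, adjusted p = 2.71e-06). Adm, the vasoactive peptide adrenomedullin, was near the detection limit and differed by -0.87 ± 0.32 (log2 and SE, adjusted p = 0.0295), and P4ha1, a collagen prolyl hydroxylase, by -0.59 ± 0.21 (log2 and SE, adjusted p = 0.025). Both calls are lost in 5 of the 10 fits that leave out a single day 5 library, either KO3 library and WT libraries 3 and 4 among them.

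Bnip3l and Ero1l share chromosome 14, where the genes around both had median differences below 0 in the depleted lines. Bnip3l, a mitophagy receptor like Bnip3, stood on day 5 at 98.8, 90.9, 108 and 114 CPM in WT, 34.8, 36.4, 36.5 and 32.8 in KO2 and 46.9 and 49.4 in KO3 (-1.30 ± 0.13 SE on the log2 scale, adjusted p = 4.73e-11). Ero1l, an oxidase that forms disulfide bonds in the endoplasmic reticulum, stood at 27.7, 26.8, 33.6 and 41.03 CPM in WT, 12.8, 14.4, 8.68 and 10.6 in KO2 and 9.18 and 8.15 in KO3 (-1.58 ± 0.17 SE on the log2 scale, adjusted p = 1.45e-09). No depleted library overlapped WT for either. The local median over 50 neighbours on each side was -0.53 for Bnip3l and -0.38 for Ero1l on day 5 on the log2 scale. Centred on these neighbours the day 5 differences were -0.77 and -1.21, and both stayed called. On day 1 the centred differences were -0.08 and -0.29 and on day 3 that of Bnip3l was -0.37, and those calls were lost; the part of the region in them was not tested.

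Ndrg1 and P4ha2 did not follow the other HIF targets. Ndrg1, a stress-induced gene also driven by other pathways, stood in 2iL at 31.6, 25.2 and 29.6 CPM in WT, 20.1, 24.6 and 13.8 in KO2 and 8.45, 5.41 and 10.8 in KO3. All 6 depleted libraries lay below WT (-1.15 ± 0.25 SE on the log2 scale, adjusted p = 0.000671). On day 3 it stood at 14.2, 7.86, 9.72 and 9.41 CPM in WT, 55.7, 46.9, 52.5 and 51 in KO2 and 47.7 and 53.04 in KO3, with all depleted libraries above all WT libraries (2.23 ± 0.24 SE on the log2 scale, adjusted p = 1.33e-09). By day 5 it stood at 18.5, 20.2, 27.1 and 38.2 CPM in WT, 16.2, 17.03, 16.5 and 17.7 in KO2 and 75.1 and 59.8 in KO3, where the KO3 libraries lay above all WT libraries and those of KO2 below all WT libraries, and KO3 exceeded KO2 by 1.93 ± 0.31 (log2 and SE, adjusted p = 2.33e-05). P4ha2, a second collagen prolyl hydroxylase, was higher in 2iL and on days 1 and 3, in the last at 2.84, 4.58, 3.08 and 2.89 CPM in WT, 6.17, 5.55, 7.29 and 6.59 in KO2 and 7.20 and 8.51 in KO3 (0.91 ± 0.22 SE on the log2 scale, adjusted p = 0.00116). The 2iL call of P4ha2 is lost without WT library 2 or 3 or KO3 library 1. It is also lost with edgeR, with a pseudocount of 5 CPM and with only the groups compared in the fit. That call rests on KO2: its 2iL levels were 6.37, 2.34 and 2.36 CPM in WT, 16.65, 8.52 and 7.74 in KO2 and 4.89, 4.21 and 2.62 in KO3, where KO3 overlapped WT. KO3 was called lower than KO2 for P4ha2 in 2iL and on day 1. Ankrd37, an ankyrin repeat protein induced by hypoxia, was higher on day 1 (0.84 ± 0.30 SE on the log2 scale, adjusted p = 0.0379), a call lost in 6 of 12 fits without single libraries (WT 1 and 3, KO2 2, 3 and 4, and KO3 4). The levels of 10 trophoblast markers moved with Ndrg1 on day 3, with sums of 148 to 179.8 CPM in WT, 456 to 736 in KO2 and 593 to 649.6 in KO3 and with 4 markers at 1 CPM or more in WT, 8 in KO2 and 9 in KO3. On day 1 that sum was 53.2 to 68.4 CPM in WT, 141.6 to 200.3 in KO2 and 142.4 to 180.9 in KO3, while Ndrg1 overlapped WT in both depleted lines. In 2iL the trophoblast sum was 120.6 to 148.1 CPM in WT, 165.5 to 214.7 in KO2 and 141.4 to 182.4 in KO3. Ndrg1 was lower in both depleted lines there, so the 2 did not move together at these earlier times. The 7 formative markers on day 1 summed to 3882.5 to 4373.3 CPM in WT, 2648.6 to 2984.2 in KO2 and 2285.2 to 2498.0 in KO3. On day 3 they were 3394.6 to 3815.9, 2632.2 to 2937.0 and 2551.0 to 2583.2 CPM. That order did not hold on day 5, where WT overlapped KO2 and lay below KO3. The formative sums were then 1858.3 to 2222.4 CPM in WT, 1909.0 to 2733.9 in KO2 and 2440.1 to 2477.2 in KO3. The 9 fibroblast and feeder markers on day 3 summed to 30.4 to 35.5 CPM in WT, 75.8 to 125.9 in KO2 and 39.2 to 42.8 in KO3. On day 5 the sum of 10 primitive endoderm markers was 43.8 to 49.1 CPM in WT, 57.0 to 77.7 in KO2 and 430.5 to 517 in KO3, with 3, 4 and 9 markers at 1 CPM or more. On day 1 it was 13.2 to 21 CPM in WT, 37.1 to 48.7 in KO2 and 94.1 to 150.2 in KO3, and on day 3 it was 38.4 to 50.8, 71.2 to 85.0 and 307.0 to 358.4 CPM. Their part in the differences of Ndrg1 and the other members was not tested. On day 5 the trophoblast sum was 322 to 355 CPM in WT, 298 to 359 in KO2 and 551 to 562 in KO3. The sum of 5 neural markers was then 142.1 to 164.4 CPM in WT, 163.7 to 255.8 in KO2 and 289.2 to 303.8 in KO3, and its part was not tested either.

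Hif1a mRNA was called at none of the 4 times between genotypes. It stood in 2iL at 83.05, 77.04 and 66.7 CPM in WT, 61.9, 63.9 and 59.4 in KO2 and 78.97, 77.1 and 62.2 in KO3, a difference of -0.17 ± 0.12 (log2 and SE, adjusted p = 0.327). On day 5 it stood at 130.4, 132, 112 and 110.2 CPM in WT, 90.4, 106, 106 and 120.5 in KO2 and 124 and 125 in KO3 (-0.08 ± 0.11 SE on the log2 scale, adjusted p = 0.638). The groups overlap at both times. Of 14 other genes of the HIF machinery, 2 were higher and 1 lower on day 5, near the shares of all genes (8.89% and 11.7%). Cited2, which competes with HIF for the coactivators CBP and p300, was higher at all 4 times, by 1.37 ± 0.16, 1.06 ± 0.14, 2.02 ± 0.15 and 1.05 ± 0.15 on the log2 scale (adjusted p = 3.8e-07 on day 5). Epas1, the HIF-2 alpha subunit, was called higher (1.81 ± 0.20 SE on the log2 scale, adjusted p = 1.75e-09), but rests on KO3: its mean was 0.6 CPM for WT, 0.64 for KO2 and 17.9 for KO3. Hif3a, an alpha subunit with inhibitory forms, was lower (-1.50 ± 0.20 SE on the log2 scale, adjusted p = 8.66e-08), with means of 23.3, 9.27 and 6.28 CPM.

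**Figure D5:**
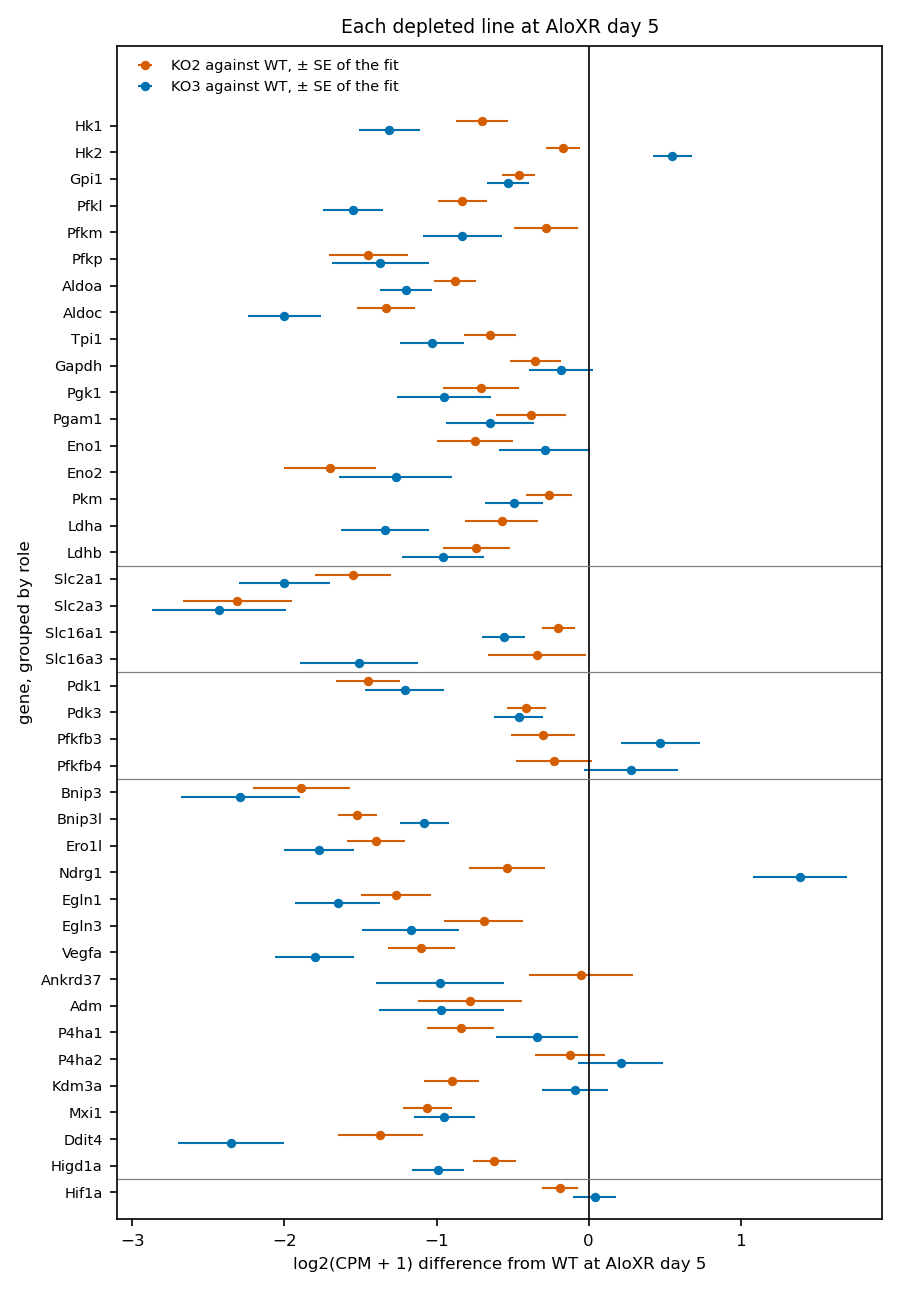
Difference from WT on AloXR day 5 (log2 scale, error bars are the SE of the fit) for each member, for KO2 and KO3 separately. Both lines lie below 0 for Slc2a3, Slc2a1, Bnip3 and Ddit4, and Ndrg1 parts them.

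Whether the change on leaving 2iL differed between genotypes was tested directly. The change differed for 7 members on day 1 (5 more positive in the depleted lines and 2 more negative, beside 4.79% and 4.37% of all genes), for 15 on day 3 (6 and 9, beside 8.41% and 6.37%) and for 22 on day 5 (4 and 18, beside 7.53% and 10.4%). On day 5 the 4 more positive were Hk1, Hk2, Ldhb and Ndrg1, the last of which is not called without 2iL library 1 of WT or 3 of KO2, or day 5 library 1 or 2 of WT. The change of Ndrg1 to day 5 rests on KO3. Its KO2 libraries lay below every WT library both in 2iL and on day 5, while those of KO3 went from below WT to above it. The most negative were Ddit4, Slc2a3 (-2.43 on the log2 scale), Aldoc (-2.18 ± 0.27 SE on the log2 scale, adjusted p = 3.01e-08), Slc2a1 and Bnip3 (-1.79 ± 0.44 SE on the log2 scale, adjusted p = 0.00354). The first count rests on WT library 3 in 2iL: without it the change to day 1 differed for 17 members. Without library 3 of each line it was 17 as well, with Pkm at -0.79 and Slc2a1 at -0.85 on the log2 scale. It was 11 without library 1 of either depleted line in 2iL, and the day 3 count was 9 without WT library 1 in 2iL. These comparisons share the WT and 2iL libraries with those above.

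The depleted lines differed from each other in fewer members. KO3 was lower than KO2 in 4 members in 2iL and higher in 0 with limma (4 at an unadjusted p under 0.05, 0 with edgeR), beside 4.74% and 2.5% of all genes. On day 1, 5 were higher and 3 lower (8.19% and 6.79% of all genes). On day 3 the counts were 2 and 3 (5.58% and 2.11%), and on day 5 they were 4 and 5 (9.02% and 5.06%). Slc2a1 on day 1 was among them, at 184, 192, 251 and 309.7 CPM in WT, 277, 257, 289.97 and 270.2 in KO2 and 103, 109.8, 144 and 144 in KO3: KO2 overlapped WT, KO3 lay below both, and KO3 differed from KO2 by -1.14 ± 0.25 (log2 and SE, adjusted p = 0.000907). Each line compared with WT by itself on day 5, KO2 had 24 members lower (10.6% of all genes) and KO3 had 24 lower and 1, Ndrg1, higher (12.6% and 12.8% of all genes for KO3, beside 6.27% higher for KO2). Without either KO3 library of day 5 the count between the lines on that day was 2 instead of 9, and without KO2 library 1 or 2 it was 5 or 4. On day 3 it was 0 or 1 instead of 5 without KO3 library 1 or 2, in 2iL 2 instead of 4 without KO2 library 2 and 9 without KO3 library 3, and on day 1 it was 4 instead of 8 without KO2 library 4.

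Related genes outside the list were counted in the same comparison. On day 5, 3 of 29 other HIF targets were higher and 11 lower (8.89% and 11.7% of all genes), with a median of -0.20 on the log2 scale. Among them were Loxl2, a lysyl oxidase (-1.96 ± 0.29 SE on the log2 scale, adjusted p = 7.39e-07), and Stc2, a secreted stanniocalcin (-1.42 ± 0.22 SE on the log2 scale, adjusted p = 1.83e-06), while Gbe1, the glycogen branching enzyme, was higher (1.32 ± 0.18 SE on the log2 scale, adjusted p = 1.8e-07). In 2iL, 5 of these 29 were lower and 1 higher (7.6% and 8.11% of all genes). The largest difference was that of Ak4, a mitochondrial adenylate kinase (-4.35 ± 0.22 SE on the log2 scale, adjusted p = 2.76e-19), with means of 121 CPM for WT, 5.66 for KO2 and 4.82 for KO3. Of 16 other glycolytic and gluconeogenic genes, 6 were lower and 2 higher on day 5 (11.7% and 8.89% of all genes). Among the lower were Pgm1, a phosphoglucomutase (-2.25 ± 0.32 SE on the log2 scale, adjusted p = 1.52e-06), and Pck2, mitochondrial PEP carboxykinase (-1.68 ± 0.15 SE on the log2 scale, adjusted p = 1.31e-11). Of 10 genes of pyruvate entry 1 was lower, Pdk2 (-0.94 ± 0.30 SE on the log2 scale, adjusted p = 0.0148), near the 11.7% of all genes. Of 7 pentose phosphate genes, limma called 0 in either direction on day 5 (1 higher and 1 lower at an unadjusted p under 0.05), and edgeR called 0.

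Counting could blur some members. Of the 50-base stretches in the last 300 bases of the transcript, 86.9% for Eno1 and 78.3% for Gapdh also occur in transcripts of other genes, and 46.8% for Bnip3, 20.5% for Ldha and 12.7% for Ldhb. For 27 members none does. The levels of Eno1 and Gapdh are therefore uncertain. The search covered annotated transcripts alone, so it does not show that the levels of the other members are sound. Pgk1 and Pgam1, for which no stretch was shared, had low means of 6.69 and 3.85 CPM over all libraries. In 9 members a gene on the opposite strand overlaps the last 1000 bases (Pfkp, Tpi1, Gapdh, Slc2a1, Bnip3, Ndrg1, Ankrd37, Adm and Hif1a). The strand setting of the counting is not given in the sources used here. In 1 member, Hif1a, a gene on the same strand overlaps these bases as well. What that does to the level of Hif1a was not tested.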

How the data were processed

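RNA of 41 E14 ESC libraries was read by QuantSeq 3′ tag sequencing, and the authors deposited 1 table of CPM per gene. Per the submitters' processing notes, STAR 2.7.6a, featureCounts 2.0.1 and the genome build GRCm38 were used. The order of steps and the strand setting are not given in the sources used here. The deposited CPM were whole multiples of what 1 read is worth in 100% of 766190 values above 0 (tolerance 0.01 read), so read counts were recovered, giving 3424064 to 5736053 reads per library. Multi-mapping reads and duplicates were handled as the authors did. Without molecular identifiers, duplicate QuantSeq tags may remain in the counts.

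Columns were assigned by the names in their titles. The filter of 1 CPM in 3 libraries left 16967 genes. The values as log2(CPM + 1) were fitted with limma 3.58.1 in R 4.3.3 (trend and robust variance, 12 group means, all 41 libraries). P-values were adjusted by Benjamini-Hochberg over all genes tested. A gene was called at an adjusted p under 0.05 and 1.5-fold, and in comparisons of both depleted lines only where both moved the same way. The script was tested on simulated data. Alternatives were edgeR 4.0.16 on the recovered reads, other pseudocounts, filters and normalization, fits of the groups compared, centring on 50 neighbouring genes on each side, and leaving out libraries.

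The members and the related gene lists were chosen with earlier results of these data known. All members may be named. Full statistics were reserved for called members (by size of change, up to 6 core enzymes, 2 transporters, 2 regulators and 6 HIF targets per comparison) and for the reference members Hif1a, Slc2a1, Hk2, Gapdh, Pkm, Ldha and Pdk1, and for up to 3 genes per related list. Members named beyond that rule were chosen after their values were seen. Gene spans are GENCODE's on GRCm38, and promoters RefSeq's on GRCm38.p6. Proteins were not used here.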

Additional observations from a re-analysis of the deposited data

Results flagged for a closer look

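Of 161 groups of 4 libraries looked at for a single value far from the rest, 10 held one, and chance alone gives about 1 in 20. The summed HIF target level was 1734 CPM in the highest WT library of day 5, and the summed transporter level was 725 CPM in 1 KO2 library of day 1. Slc16a3 stood at 210.3 CPM in 1 KO2 library of day 5. Hk1 stood at 11.1 CPM in 1 KO3 library of day 1 and at 13.6 CPM in 1 KO2 library of day 3. On day 3 in KO2, Aldoa stood at 539.5 CPM and Egln1 at 29.9 CPM in 1 library each. In KO3 on day 1, Pdk1 stood at 47.9 CPM and Ero1l at 8.49 CPM in 1 library each. Ddit4 stood at 317 CPM in 1 WT library of day 1.

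The change on leaving 2iL differed between the depleted lines and WT for several members that the report follows, given here as depleted minus WT on the log2 scale. To day 1 the difference was 1.3 for Hk1, 0.82 for Hk2, -0.9 for Aldoc, 1.99 for Ldhb, -1.4 for Bnip3 and 1.46 for Ndrg1. To day 3 it was 1.53 for Hk1, 0.84 for Hk2, -0.83 for Aldoa, -1.49 for Aldoc, -1.21 for Ldha, 3.2 for Ldhb, -1.28 for Bnip3, 0.78 for Ero1l, 3.38 for Ndrg1 and -1.56 for Ddit4. To day 5 it was 0.97 for Hk1, 0.71 for Hk2, -1.01 for Aldoa, -2.18 for Aldoc, -0.95 for Ldha, 3.13 for Ldhb, -1.84 for Slc2a1, -2.43 for Slc2a3, -1.79 for Bnip3, 1.57 for Ndrg1, -1.43 for Egln1, -0.95 for Vegfa and -2.68 for Ddit4. Some of these calls depend on single libraries or on the fit. The day 1 call of Bnip3 was lost in 6 of 21 fits that leave out a library, and its day 3 call in 13 of 19. The day 3 calls of Ero1l and Ldha were lost in 5 and 2 of 19. On day 5 the call of Ldha was lost in 11 of 19, that of Ndrg1 in 4 and that of Vegfa in 2 (WT library 3 or KO2 library 1 in 2iL). The day 5 value of Ndrg1 rests on KO3, since KO2 lay below WT in 2iL and on day 5 alike. With edgeR, Bnip3 was not called on days 1 and 3, nor Ldha on day 5. Without library 3 of each line in 2iL, Ero1l was not called on day 3, nor Ndrg1 on day 5. Ero1l was also not called without the filter on low values, and Ldha on day 5 not when centred on neighbouring genes. With only the groups compared in the fit, the calls of Bnip3 on days 1 and 3, Ldha on days 3 and 5, Ero1l on day 3 and Vegfa on day 5 were lost.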

How the results depend on the processing

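In all, 232 values of members were followed through the 9 alternatives and with each library left out, and 0 of the called ones reversed. This does not show that uncalled values near 0, such as that of Ldha in 2iL, kept their sign. Counts of called members that moved by over 1.5 times were these: 8 in place of 13 for the depleted lines against WT on day 1 with a pseudocount of 5 CPM; 17 in place of 7 for the difference of changes to day 1 without library 3 of each line in 2iL; and, between KO3 and KO2, 0 in place of 4 in 2iL with only the groups compared in the fit and 10 without library 3 of each line, 5 in place of 8 on day 1 with quantile normalization, and 4 in place of 9 on day 5 when centred on neighbouring genes. With only the groups compared, fewer libraries set the spread; for the others the cause was not tested. Leaving out each library in turn gave 7 to 15 called members for the depleted lines against WT in 2iL, 11 to 15 on day 1, 13 to 18 on day 3 and 23 to 26 on day 5. It gave 20 to 23, 22 to 26 and 28 to 29 for WT on days 1, 3 and 5 against 2iL, 6 to 17, 9 to 21 and 18 to 25 for the difference of changes, and 2 to 9, 4 to 9, 0 to 6 and 2 to 9 between the depleted lines in 2iL and on days 1, 3 and 5. No paired analysis was possible because neither the labels nor the column names give replicate numbers shared between groups. Depth limits the genes near 1 CPM: Eno2 reached it in 34 libraries, Adm in 20, Pfkfb4 in 37 and Ankrd37 in 40. The 2 KO3 libraries on days 3 and 5 limit comparisons between the depleted lines.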
